A study of Bos taurus with 20 samples.

Results

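The receptors through which cells sense progesterone and estrogen were examined in maternal blood RNA-sequencing of pregnant cattle (Bos taurus). The 8 genes were taken by symbol (PGR, ESR1, PGRMC1, PGRMC2, PAQR5, PAQR7, PAQR8 and GPER1) and matched through the NCBI cattle gene table to the Entrez IDs of the count files, where all 8 of 37063 gene IDs were present. Whole blood was drawn on day 63 of gestation from 20 recipient cows, each carrying a single female fetus from an embryo produced in vitro and transferred to a synchronized cow. There was 1 library per cow, no library of a non-pregnant cow or of another day is analysed here, and the only measure that differed between cows in the labels was the birth weight (BW) of the calf. The paper gives recipient ages that span several years and considered dam parity for calving ease. Neither is labelled by cow, so no slope here allows for age or parity. BW was 45.0 ± 10.1 kg (SD, n = 20), from 30 to 72.5 kg, and 43.5 ± 7.97 kg (SD, n = 19) without the 72.5 kg calf. Cows are named here by the BW of their calf, since no BW occurred in more than 1 cow.

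Progesterone maintains pregnancy, and its concentration in maternal blood stays high throughout gestation in cattle. Its classical receptor, like that of estradiol, is a transcription factor that binds the steroid, pairs up and acts on DNA. A separate group of proteins carries steroid signals from cell membranes rather than through direct binding to DNA. Expression is given as CPM, the counts of a gene scaled to a common library total by the trimmed mean of M-values (TMM). Lengths of the transcripts were not used here, so levels are compared between cows for each gene and never between genes. Because blood is a mixture, a lower value can come from fewer cells of a type or from less RNA per cell, and the 2 cannot be told apart.

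The libraries held 24632077 to 39892111 counts, with a median of 33412740. The summed level of 9 neutrophil markers ran from 2647 to 5160 CPM, that of 10 T cell markers from 1003 to 1569 CPM, and that of 8 B cell markers from 942 to 1695 CPM, so all 20 libraries carried the leukocyte transcripts of blood. Trophoblast markers were near the bottom of the assay: 6 of 8 were at 0 in all 20 cows and the 8 together reached at most 0.332 CPM.

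The nuclear receptors differed in how readily they could be measured. PGR, the classical nuclear progesterone receptor, was close to undetected, with 45 counts in all 20 libraries together. It had 0 counts in 9 cows, 1 count in 1 cow, 3 counts in 8 cows, 8 counts in the 72.5 kg cow and 12 counts in the 47.4 kg cow. A level of 3 counts corresponded to 0.0745 to 0.121 CPM depending on the depth of the library, and only these 2 cows were above it. The mean was 0.0723 ± 0.0954 CPM (SD, n = 20). PGR did not pass the filter on low counts (at least 10 counts in at least 5 cows), so no slope was fitted for it and differences between cows were not tested. The level of 3 counts takes account of counting error only, and the paper describes no molecular identifiers.

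ESR1, which encodes the nuclear estrogen receptor alpha, was measured in every cow with 100 to 328 counts. Its level was 6.72 ± 1.31 CPM (SD, n = 20), lowest at 4.03 CPM in the 30 kg cow, 6.84 CPM at the median and highest at 8.97 CPM in the 45 kg cow. The second lowest value, 4.16 CPM, came from the 56 kg cow, so the lightest calf and the heaviest of the 19 calves other than the 72.5 kg calf belonged to the cows with the least ESR1. The libraries of the 30 and 56 kg cows also held the fewest counts of all, 24632077 and 26251031. A link of ESR1 with depth was not tested in these cows. Its slopes on marker scores of 8 blood cell types, described below, were not called (edgeR quasi-likelihood FDR 0.614 to 0.978). The other nuclear estrogen receptor, ESR2, was at 0.944 ± 0.389 CPM (SD, n = 20) and ranged from 0.452 to 1.95 CPM.

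The membrane progestin receptors are members of the PAQR family of membrane-spanning proteins. PAQR8, membrane progestin receptor beta, was at 31.0 ± 5.88 CPM (SD, n = 20), with 21.2 CPM in the 41.5 kg cow, a median of 29.15 CPM and 43.7 CPM in the 56 kg cow. The cows of the 56, 45 and 46 kg calves stood above the others at 43.7, 41.4 and 40.9 CPM, and the next cow, at 36.2 CPM, was that of the 43 kg calf. PAQR7, membrane progestin receptor alpha, was at 1.31 ± 0.363 CPM (SD, n = 20), from 0.675 CPM in the 47.4 kg cow over a median of 1.33 CPM to 2.14 CPM in the 56 kg cow. PAQR7 rested on 23 to 57 counts per cow, and 19.5% of its span in the gene table overlaps a long non-coding RNA that held 0 to 5 counts.

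PAQR5, membrane progestin receptor gamma, was the most variable of the receptors that passed the filter. It was at 0 in the 32 and 49.5 kg cows, at 0.285 CPM at the median and at 1.47 CPM in the 47.4 kg cow, with a mean of 0.371 ± 0.337 CPM (SD, n = 20). The second highest value, 0.796 CPM in the 37 kg cow, was well below the highest. Only 10 cows had at least 10 counts of it, and 2.22% of its span in the gene table overlaps KIF23, which held 361 to 757 counts per cow. The 47.4 kg cow thus had the most PAQR5, the most PGR and the least PAQR7 of the 20 cows.

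PGRMC1 and PGRMC2 encode heme-binding proteins of the membrane-associated progesterone receptor family, which act in progesterone responses and in steroid and heme metabolism. PGRMC1 was at 36.95 ± 5.95 CPM (SD, n = 20), from 26.2 CPM in the 72.5 kg cow over a median of 38.3 CPM to 49.2 CPM in the 54 kg cow. The second lowest cow was that of the 56 kg calf at 26.75 CPM, and the second highest, at 42.6 CPM, that of the 37 kg calf. PGRMC2 was at 44.9 ± 4.80 CPM (SD, n = 20), from 37.55 CPM in the 54 kg cow over a median of 46.0 CPM to 54.1 CPM in the 41.5 kg cow. The cow with the most PGRMC1 was therefore the cow with the least PGRMC2, although over the 20 cows the ranks of the pair were only weakly opposed (Spearman rho −0.28, given as a description).

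**Figure D1:**
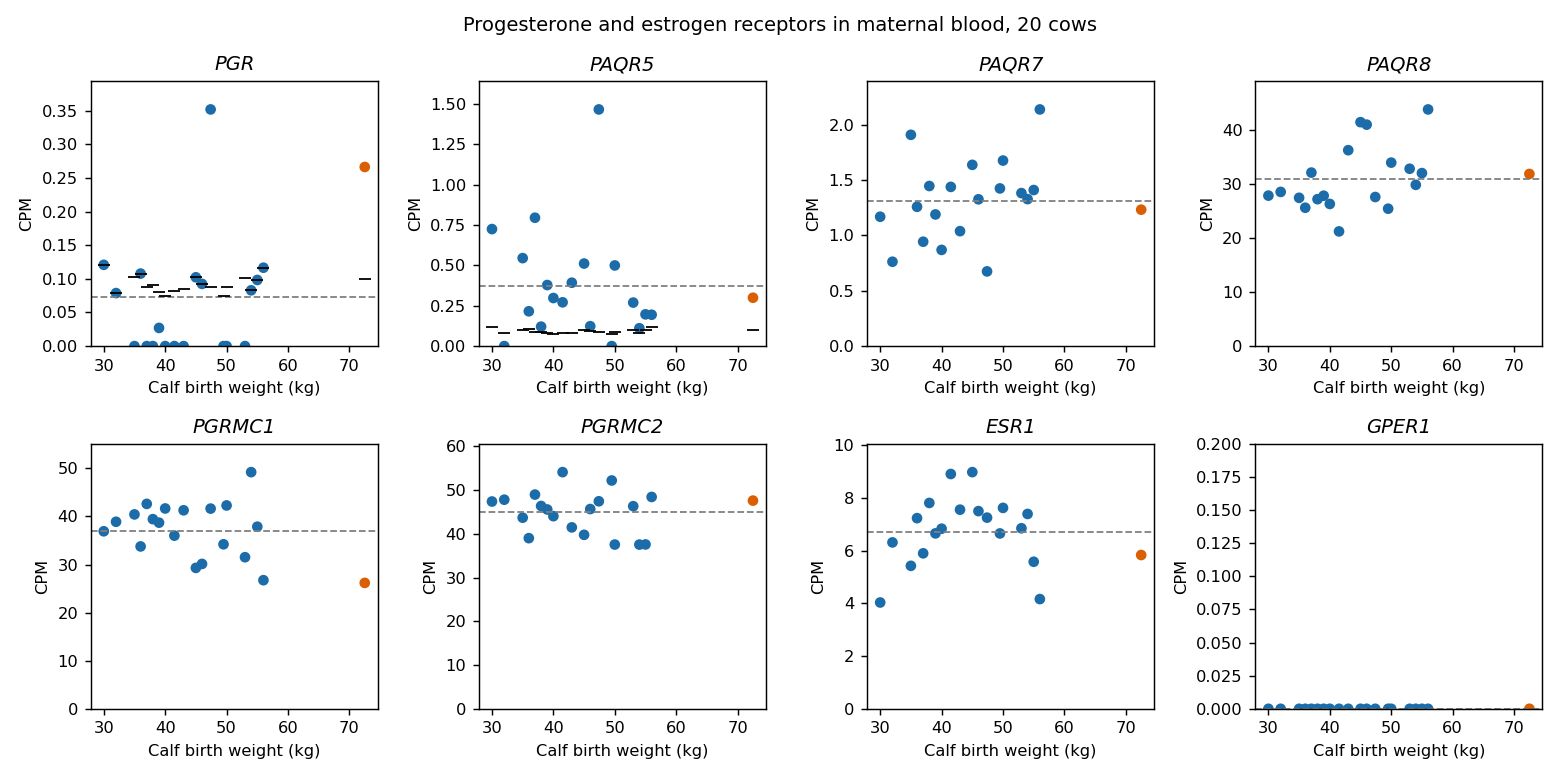
Level of each of the 8 receptors in CPM (y axis, linear, separate scale per panel) against the BW of the calf in kg (x axis), with 1 point per cow. The point of the 72.5 kg calf is orange, the dashed line is the mean over 20 cows, and the short black ticks for PGR and PAQR5 mark the level that 3 counts give in each library. PGR lies above the tick in the 47.4 and 72.5 kg cows, at the tick in 8 cows and below it in the others, PAQR8 is highest in the 56, 45 and 46 kg cows, and GPER1 is listed at 0 throughout.

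GPER1, the G protein-coupled estrogen receptor, was listed at 0 in all 20 cows, and this value cannot be read as absence. In the gene table GPER1 lies wholly inside the span of C25H7orf50, which held 1562 to 4484 counts per cow. Of 1248 protein-coding genes placed wholly inside another gene, 1151 (92.2%) were at 0 in all 20 cows, against 2488 of 20418 (12.2%) of the other protein-coding genes. How reads in a shared span were assigned is not given in the sources used here, so no upper limit is set for GPER1. None of the other 7 receptors lies inside another gene.

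**Figure D2:**
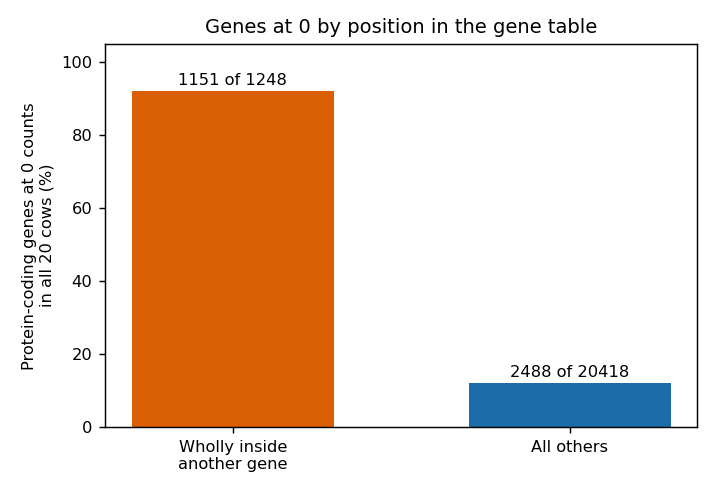
Share of protein-coding genes with 0 counts in all 20 cows (y axis, percent) for genes that lie wholly inside the span of another gene and for all others, by position in the NCBI cattle gene table. The bar of the enclosed genes, the class of GPER1, stands at 1151 of 1248 and that of the others at 2488 of 20418.

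The spread between cows was set against the spread that counting alone would give. The coefficient of variation (CV) was 10.7% for PGRMC2, 16.1% for PGRMC1, 18.998% for PAQR8 and 19.5% for ESR1, against counting errors of 2.60%, 2.85%, 3.15% and 6.68%. The counting errors are those of independent counts and cover counting error only. PAQR7 had a CV of 27.6% with a counting error of 15.3%, and PAQR5 a CV of 90.9% with a counting error of 28.9%. Of counts between 1 and 10, 60.9% were even, so low counts are not independent molecules. The counting error given for PAQR5 may therefore be too low. The highest cow exceeded the lowest 1.44-fold for PGRMC2, 1.88-fold for PGRMC1, 2.06-fold for PAQR8, 2.23-fold for ESR1 and 3.17-fold for PAQR7.

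Compared with the 16269 genes tested over 20 cows, PGRMC2 was among the steadier genes. Its SD of log2 CPM was 0.16, and 33.7% of the genes had a lower SD. The SDs of PGRMC1 (0.24), PAQR8 (0.26) and ESR1 (0.30) were above the median of all genes, 0.22, and 52.7% to 60.2% of genes had a lower SD, whereas PAQR7 was at 0.40 and PAQR5 at 1.16. The biological coefficient of variation of edgeR was 27.6% for PAQR7 against 46.4% on the trend for genes of its abundance, and 17.8% for PAQR8 against 15.3%. This coefficient models spread beyond counting error, but the value of each gene is drawn toward the trend. The ratio of a gene to the trend is therefore partly set by the method. The ratio to the trend was 0.594 for PAQR7, 0.760 for ESR1, 0.779 for PGRMC2, 1.085 for PGRMC1, 1.16 for PAQR8 and 1.304 for PAQR5, with a median of 0.719 over all genes, so PAQR7 lay below that median and the other 5 above it.

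**Figure D3:**
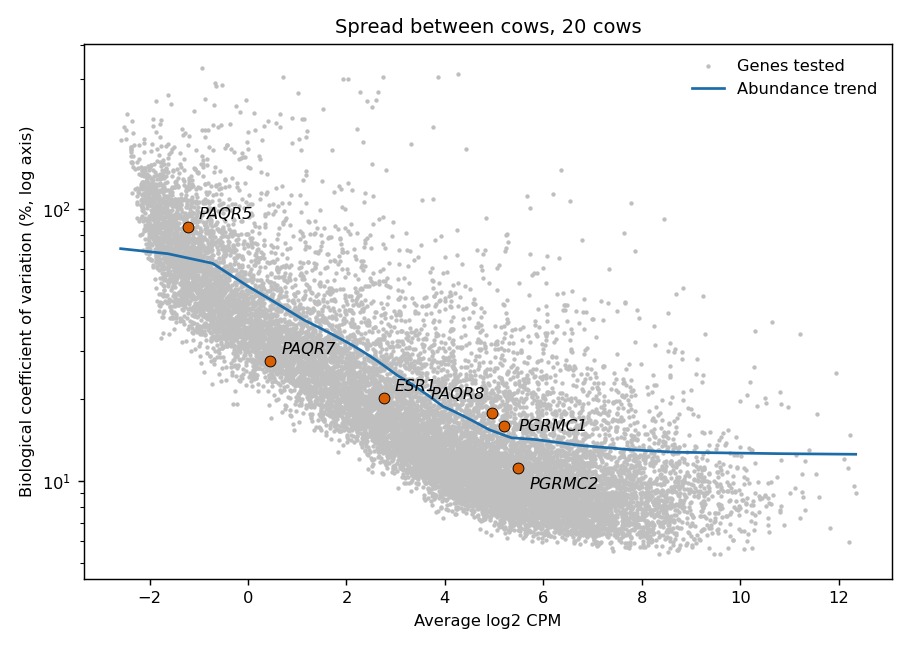
Biological coefficient of variation of edgeR (y axis, percent, log scale) against mean level (x axis, log2 CPM) for the genes tested over 20 cows in grey, with the 6 receptors that passed the filter in orange and the trend with abundance as a blue line. PAQR5 stands at 86.0% and PGRMC2 at 11.2%, with the other 4 between them.

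The study asked whether maternal blood at day 63 carries transcripts related to the BW of the calf, and the slope of each receptor on BW was therefore estimated over the 19 cows other than that of the 72.5 kg calf. Of the 6 receptors that passed the filter, 0 were called at a false discovery rate (FDR) below 0.05 by edgeR's quasi-likelihood test with Benjamini-Hochberg adjustment over 16206 genes, where 0% of all genes were called. At an unadjusted p below 0.05 there was 1 of 6, PAQR8, against 13.9% of all genes in either direction and 6.78% with a positive slope. DESeq2, the method of the study, called 0 of the 6 receptors and 1.22% of 15478 genes.

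PAQR8 had a slope of 0.15 ± 0.067 on the log2 scale per 10 kg of BW (SE, 95% interval 0.012 to 0.29, n = 19). Its edgeR quasi-likelihood p was 0.0342 before adjustment and its FDR 0.316, and DESeq2 gave an FDR of 0.255, so the slope did not pass the threshold. Without the 56 kg cow the slope was 0.011 per kg with an edgeR quasi-likelihood p of 0.149, against 0.015 per kg with it. Over the 19 fits without 1 cow the slope ran from 0.011 to 0.018 per kg. The unadjusted edgeR quasi-likelihood p was below 0.05 in 17 of them, and the lowest FDR was 0.233. With all 20 cows the edgeR quasi-likelihood p was 0.0745.

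The level of IL5RA, the receptor subunit for interleukin 5 that eosinophils carry, was also highest in the 56 kg cow. IL5RA ranged from 20.2 CPM in the 40 kg cow over a median of 58.8 CPM to 199.9 CPM in the 56 kg cow, and its slope was 0.053 ± 0.019 per kg (SE, n = 19, edgeR quasi-likelihood FDR 0.216). With a planned covariate in the fit, the PAQR8 slope on BW was 0.0137 per kg for the neutrophil score (edgeR quasi-likelihood p 0.0440), 0.0153 for T cells (p 0.0386), 0.0145 for platelets (p 0.0261), 0.0135 for erythroid cells (p 0.0597) and 0.0110 for monocytes (p 0.105). With the IL5RA level in the fit, a choice made after the data were seen, the PAQR8 slope on BW was 9.08e-05 per kg (edgeR quasi-likelihood p 0.986, FDR 0.997).

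The slopes of the other 5 receptors did not pass the threshold, and their intervals included 0. PAQR7 had 0.18 ± 0.12 per 10 kg (SE, 95% interval −0.071 to 0.44, edgeR quasi-likelihood FDR 0.540), and its unadjusted edgeR quasi-likelihood p was 0.0394 without the 35 kg cow and 0.147 with it. ESR1 had 0.034 ± 0.094 per 10 kg (SE, 95% interval −0.16 to 0.23, FDR 0.915), and its sign turned when the 30 kg cow was left out. PGRMC1 had −0.050 ± 0.062 (SE, interval −0.18 to 0.079, FDR 0.774) and PGRMC2 −0.053 ± 0.046 (SE, interval −0.15 to 0.042, FDR 0.657). With all 20 cows the PGRMC1 slope was −0.0098 per kg (edgeR quasi-likelihood p 0.0627, FDR 0.399). With the monocyte score as a covariate over 19 cows it was −0.00015 per kg (edgeR quasi-likelihood p 0.976). PAQR5, with an interval of −1.19 to 0.65, had the widest interval of the 6 receptors and the largest spread between cows.

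**Figure D4:**
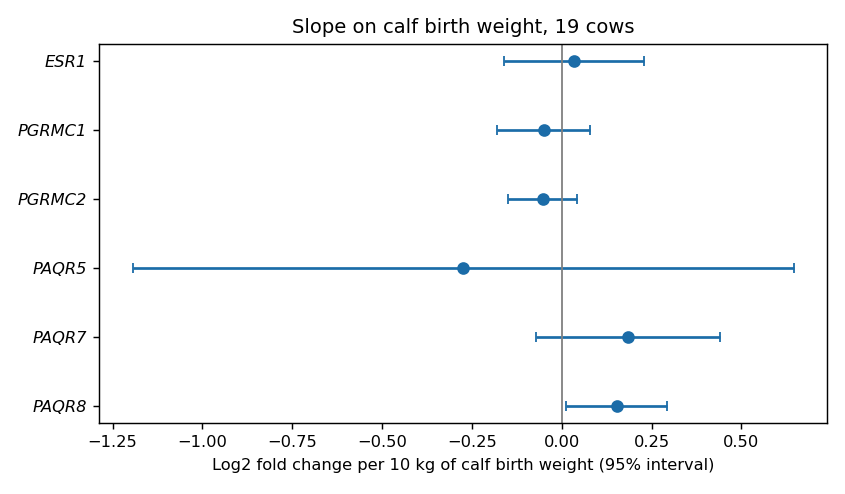
Slope on the BW of the calf for the 6 receptors that passed the filter (x axis, log2 change per 10 kg of BW, 19 cows), with points for the edgeR estimate and bars for the 95% interval. The bars of 5 receptors cross 0, that of PAQR8 runs from 0.012 to 0.29, and that of PAQR5 is the widest.

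Blood cell types differ in their transcripts, so the receptors were also set against scores of marker genes for 8 cell types. Each score was the mean standardized log2 CPM of the markers that passed the filter, and the slope is per SD of the score over 20 cows. Of the 48 pairs of 6 receptors and 8 scores, 4 were called at an FDR below 0.05 by edgeR's quasi-likelihood test, and 4 receptors (ESR1, PGRMC2, PAQR5 and PAQR7) had no call. Over all 16269 genes, the share called in either direction was 2.53% for the neutrophil score, 5.94% for IL5RA, 7.44% for monocytes, 0.258% for natural killer cells, 2.53% for B cells, 1.55% for T cells, 0.436% for platelets and 0.0553% for erythroid cells. The eosinophil list had a single usable marker, IL5RA, because 2 others were absent from the table and 2 lay inside another gene at 0, so that score is called the IL5RA level.

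PAQR8 rose with IL5RA, by 0.23 ± 0.031 log2 per SD (SE, n = 20, edgeR quasi-likelihood FDR 2.99e-05). Among all genes, 4.97% were called in this direction. The call was made in 20 of 20 fits that each left out 1 cow, with a largest FDR of 0.000696 without the 56 kg cow, which also had the highest IL5RA. The Spearman rho of PAQR8 with IL5RA itself was 0.86. Among single markers from other lists, rho over 20 cows was 0.89 with GATA1, a transcription factor of red cell, platelet and eosinophil precursors, 0.86 with MMP25, a membrane-bound protease of granulocytes, and 0.82 with ITGA2B. Most other members of those lists went the opposite way, as 8 of 9 neutrophil, 8 of 9 platelet and 7 of 9 erythroid markers had a negative rho with PAQR8.

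PGRMC1 rose with the platelet, neutrophil and monocyte scores. The slopes per SD were 0.19 ± 0.034 for platelets, 0.18 ± 0.038 for neutrophils and 0.16 ± 0.042 for monocytes (SE, n = 20), with edgeR quasi-likelihood FDRs of 0.00695, 0.0114 and 0.0261. Positive calls were made for 0.4%, 2.13% and 3.97% of all genes. The platelet call was made in 20 of 20 fits without 1 cow, the neutrophil call in 19 of 20 (FDR 0.0673 without the 56 kg cow) and the monocyte call in 18 of 20 (FDR 0.223 without the 56 kg cow).

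Within the lists, PGRMC1 followed most members. Its rho was positive with 8 of 9 platelet markers, among them TUBB1 (0.79), PF4 (0.76) and ITGB3 (0.74), with 8 of 9 neutrophil markers, among them S100A9 (0.66), and with 7 of 7 monocyte markers. The 3 scores were related to different degrees. Pearson's r was 0.77 between neutrophils and monocytes (permutation p 3e-05, adjusted 0.00084 over 28 pairs of scores) and 0.61 between neutrophils and platelets (permutation p 0.00432, adjusted 0.0354), and 0.51 between monocytes and platelets (permutation p 0.0292, adjusted 0.117). Spearman's rho was 0.80 (permutation p 5e-05, adjusted 0.0014), 0.56 (permutation p 0.0125, adjusted 0.0873) and 0.43 (permutation p 0.0608, adjusted 0.189) for the same pairs in that order. For each pair, r was also taken without the 2 cows farthest from the median of the first score named, so the cows left out depended on the pair. It was then 0.70, 0.56 and 0.25. The relation of monocytes and platelets did not pass the adjustment with all cows, and its r was smaller without the cows left out for that pair. The platelet and neutrophil scores were then put in 1 fit, a choice made after the data were seen. The slopes of PGRMC1 were 0.13 for platelets (edgeR quasi-likelihood p 0.00179, FDR 0.384) and 0.096 for neutrophils (p 0.0159, FDR 0.360), and neither passed the FDR threshold. With the platelet and monocyte scores in 1 fit, the slopes were 0.15 for platelets (edgeR quasi-likelihood p 0.000317, FDR 0.122) and 0.080 for monocytes (p 0.0346, FDR 0.277). With the neutrophil and monocyte scores in 1 fit, they were 0.14 for neutrophils (edgeR quasi-likelihood p 0.0235, FDR 0.436) and 0.046 for monocytes (p 0.443, FDR 0.817). The slope on each score was smaller beside a second score, and none of the 6 slopes passed the FDR threshold. Few of the 16269 genes passed it in these fits. The platelet and neutrophil fit called 20 genes on platelets and 94 on neutrophils. The platelet and monocyte fit called 24 on platelets and 460 on monocytes, and the neutrophil and monocyte fit 35 on neutrophils and 330 on monocytes.

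**Figure D5:**
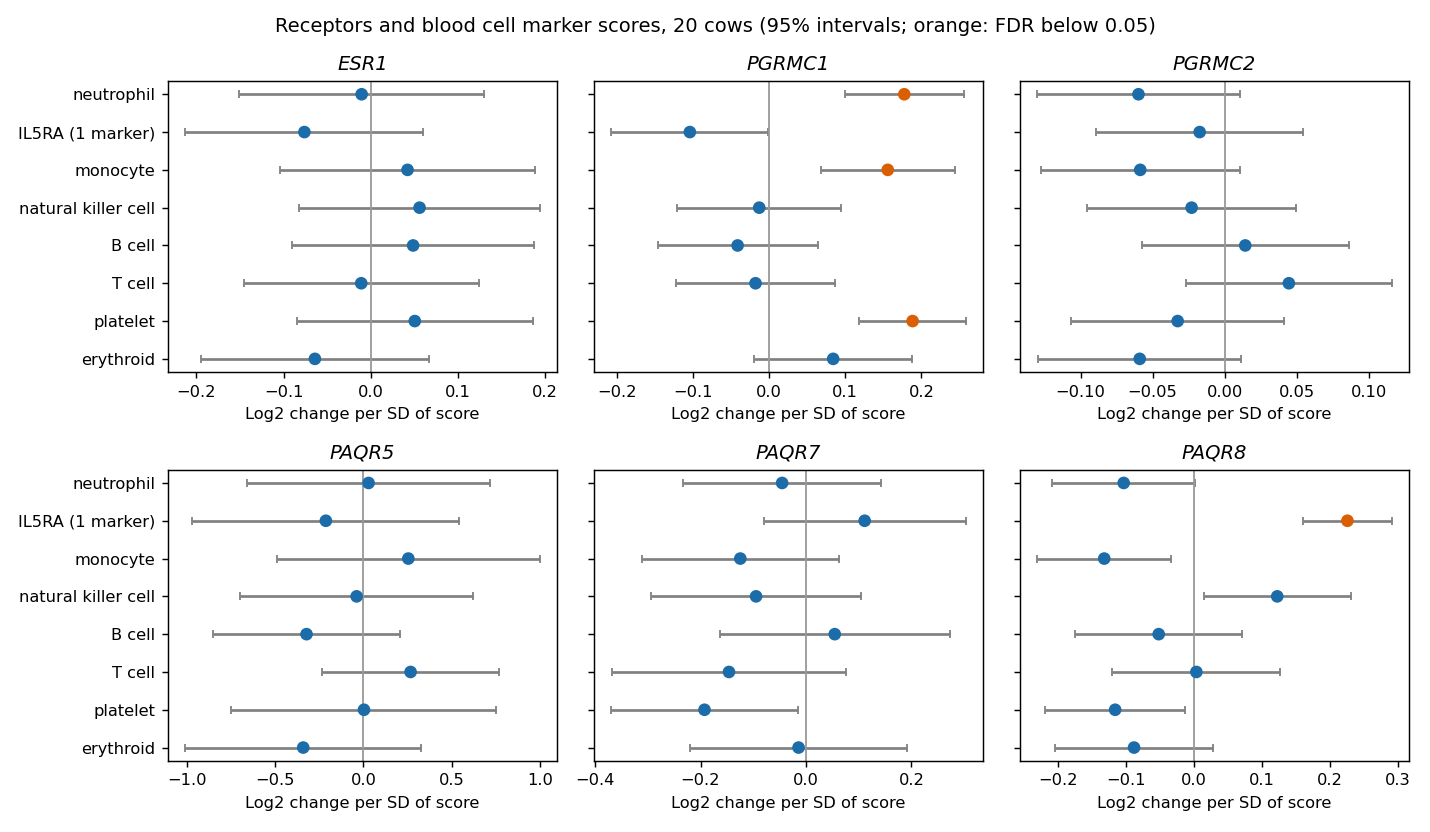
Slope of each of the 6 receptors on each blood cell marker score (x axis, log2 change per SD of score, scales differ between panels), over 20 cows with 95% intervals. Orange points mark the 4 pairs called at an FDR below 0.05, which are PGRMC1 with neutrophils, monocytes and platelets, and PAQR8 with the IL5RA level.

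The genes most like each receptor in rank over 20 cows were described without a test. PAQR8 was followed most closely by TKT, an enzyme of the pentose phosphate pathway (rho 0.95), COQ8A (0.94) and MYADM (0.94). PGRMC1 was nearest to PI4K2A (0.88), FCER1A, a subunit of the high-affinity IgE receptor (0.87), and KCNAB2 (0.87), and PGRMC2 to PPP4R3A (0.90), FBXO8 (0.88) and PHF6 (0.87). ESR1 had the weakest neighbours, LOC107131695 (0.74), TNFRSF12A (0.73) and ASCC1 (0.71). PAQR5 was nearest to NAGLU (0.79), LOC107131516 (0.76) and ATRIP (0.73), and PAQR7 to DSB (0.81), TNRC6A (0.78) and CELF2 (0.76). TNFRSF12A and LOC107131516 were measured at low levels, with means of 0.215 and 0.576 CPM. Pearson's r was 0.49 for TNFRSF12A with ESR1 and 0.41 for LOC107131516 with PAQR5. The median absolute rho of a receptor over 16268 genes was 0.14 to 0.23. Each point is 1 library, and libraries differ in depth and cell composition. Among the 6 receptors themselves rho ran from −0.32 for PGRMC1 and PAQR7 to 0.24 for PGRMC1 and PAQR5, so no pair of receptors moved closely together.

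Genes around the receptors were taken as 9 lists of 114 entries, of which 98 distinct genes were tested for a slope on BW over 19 cows. edgeR's quasi-likelihood test called 0 of them, and 8 (8.16%) had an unadjusted p below 0.05 against 13.9% of all genes. Slopes were positive for 42 and negative for 56, against 7544 and 8662 over all genes. DESeq2 called 2, beside 1.22% of all genes: PPID, a cyclophilin of the steroid receptor chaperone complex, with a slope of −0.013 per kg (DESeq2 FDR 0.0121, edgeR quasi-likelihood FDR 0.0976), and NCOA2, a coactivator of steroid receptors, with 0.0090 per kg (DESeq2 FDR 0.0217, edgeR quasi-likelihood FDR 0.126).

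No direction of a list was tested. Slopes were below 0 for 10 of 13 chaperones (median −0.0033 per kg), 9 of 11 estrogen-responsive genes (−0.0051), 10 of 15 genes of steroid metabolism (−0.0026), 5 of 6 other PAQR genes (−0.0068) and 5 of 8 PGRMC relatives (−0.0018). They were above 0 for 10 of 15 coregulators (median 0.00099), 10 of 17 G protein and cyclase genes (0.00055), 5 of 8 progesterone-responsive genes (0.00082) and 4 of 6 other steroid receptors (0.0016), and the median over all genes was −0.00072. The gene of smallest p in the list of PGRMC relatives was TMEM97, the sigma-2 receptor and a partner of PGRMC1, at −0.014 ± 0.0062 per kg (SE, edgeR quasi-likelihood FDR 0.319). In the list of G proteins, through which membrane progestin receptors act, it was GNAI3 at 0.0054 ± 0.0018 per kg (FDR 0.208). For estrogen-responsive genes it was IGFBP4 at 0.036 ± 0.014 per kg (FDR 0.255), and for steroid metabolism HSD11B1, which regenerates active glucocorticoid, at −0.042 ± 0.020 (FDR 0.364). Other receptors of the class had ESR2 at −0.027 ± 0.016 (FDR 0.495) and the PAQR family PAQR3 at −0.019 ± 0.010 (FDR 0.413), and progesterone-responsive genes FOXO1 at −0.0044 ± 0.0031 (FDR 0.562).

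Other genes of steroid signalling are given for their range between cows. NR3C1, the glucocorticoid receptor, was at 41.2 ± 3.45 CPM (SD, n = 20) and ranged from 36.2 to 47.6 CPM. PIBF1, a factor induced by progesterone in lymphocytes, was at 12.4 ± 1.69 CPM and ranged from 8.24 to 15.7 CPM. CYP19A1, the aromatase that makes estrogens, had 0 counts in 14 cows, and PAQR9 in 18 cows.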

How the data were processed

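Whole blood of 20 recipient cows was sequenced as 1 library per cow on day 63 of gestation. Raw counts per gene were deposited by the authors, who used Trimmomatic for trimming, STAR 2.7.0b for alignment to ARS-UCD1.3 (bosTau 9) and featureCounts of Subread 2.0.3 for counting. The setting for strand, the feature counted and the treatment of reads in shared spans are not given in the sources used here, and the sources name 2 different library kits and do not agree on the recipients' breed. Of counts between 1 and 10, 60.9% were even, so low counts are not independent molecules. No pair of the 190 pairs of libraries agreed within sampling noise (lowest chi-square per degree of freedom 12.6).

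A gene was tested when 5 or more cows had 10 or more counts of it (16206 genes in 19 cows, 16269 in 20), with TMM scaling in edgeR 4.0.16 (R 4.3.3). Slopes came from edgeR's quasi-likelihood test, with DESeq2 1.42.0 and limma 3.58.1 (voom) as alternatives and Benjamini-Hochberg adjustment over all genes. Correlations of scores were tested with 100000 permutations in NumPy 2.4.6, 2-sided, with ranks from SciPy 1.17.1. The 72.5 kg calf was left out of slopes on BW, as in the study. On simulated data, slopes of 0.06 per kg were recovered for 74.5% of 200 changed genes among 15910, with 6.88% false calls, and a change of 0.4 per SD of the T cell score for 74% of 200 among 15979, with 2.63% false calls. The slopes of the 6 receptors on BW over 19 cows ran from −0.027 to 0.018 per kg. The 4 called slopes on scores ran from 0.16 to 0.23 per SD. Recovery of slopes of these smaller sizes was not tested. Where p-values are given, cows are the replicates. Named genes were the 8 receptors, the 3 most similar genes of each and the gene of smallest p in each list, and the single markers and other genes given by level were named after their values were seen. The members and lists were chosen with earlier results of these data known. Symbols were matched through the NCBI cattle gene table of another build, so no coordinates are given, and no transcript lengths or sequences were used.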

Additional observations from a re-analysis of the deposited data

How the results depend on the processing

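Of 203 receptor slopes on BW under the alternatives, 200 kept their direction, and no receptor reached an FDR below 0.05 in any of them. The slope of ESR1 turned to −0.00093 per kg with all 20 cows and ran from −0.0054 (without the 30 kg cow) to 0.012 without 1 cow, and that of PGRMC1 turned to 0.00076 with the IL5RA level in the fit, an alternative added after seeing the data. The count of genes called on BW, 0 by edgeR's quasi-likelihood test, was 189 by DESeq2, 147 with a filter of any count, 4 with all 20 cows, 1 with library size in the fit, and 0 to 34 without 1 cow (34 without the 32 kg cow). The receptors with an unadjusted p below 0.05 on BW ranged from 0 to 2 without 1 cow. The cause was not tested. PGRMC1 was the receptor called on the neutrophil score, and the count of receptors called there was 0 to 1 without 1 cow (0 without the 56 kg cow); on the monocyte score it was 0 to 2 (0 without the 56 or the 46 kg cow, 2 without the 41.5 kg cow). Mean levels stayed within 1 SD in 176 of 176 alternatives. Most of these left out 1 of 20 cows, which cannot move a mean by 1 SD, and GPER1 was at 0 throughout. The count is therefore no measure of robustness. No paired analysis was possible because all cows form 1 group. The comparison of receptors by level per coding length was not run, since no coding lengths were used here. PGR (45 counts in all) and GPER1 (0) were below the filter on low counts and were not tested.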
